A study of Mus musculus with 24 samples.

Results

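The 38 genes described here encode proteins that drive and carry out mitosis. They are the mitotic cyclins with CDK1 and FOXM1, partners of the anaphase-promoting complex, mitotic and spindle checkpoint kinases, kinetochore, spindle and cytokinesis proteins, and the proliferation proteins Ki-67 and topoisomerase II alpha. They were chosen by name, and all 38 were among the 25791 genes tested on an Agilent mouse expression array. RNA came from bone marrow derived macrophages of mice, grown for 6 days in 20 ng/ml M-CSF, the growth factor that makes marrow cells divide and become macrophages. Macrophages labelled KO came from mice in which LysMCre, a Cre recombinase expressed from the lysozyme locus of myeloid cells, deletes the floxed Slc2a1 gene for the glucose transporter GLUT1. Macrophages labelled WT came from Slc2a1 fl/fl controls. Cells of each genotype were then cultured for 24 hours with 5 ng/ml LPS and 10 ng/ml interferon gamma (M1), with 10 ng/ml IL-4 (M2) or without either (M0). Each of the 6 groups, KO M1, WT M1, KO M2, WT M2, KO M0 and WT M0, had 4 arrays labelled as replicates, 24 in all. The labels do not say whether replicates came from separate mice, so p-values measure the spread between these arrays, which may in part be technical.

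Entry into mitosis depends on cyclins A and B bound to CDK1, which with FOXM1 raises the transcription of many of the other genes on the list. The spindle is then built by motors and microtubule proteins, kinetochores attach chromosomes to it, checkpoint kinases hold the anaphase-promoting complex back until all are attached, and that complex destroys cyclin B and lets the cell divide. The genes are transcribed late in the cell cycle and shut off in resting cells, and in M-CSF cultures of marrow macrophages they follow the share of cells that are dividing. In RNA from whole cultures, fewer dividing cells and less RNA per cell cannot be told apart.

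Promoters of such genes often hold a cell cycle genes homology region (CHR), TTTGAA, and CCAAT boxes, so the promoter windows of the list were searched for these letters on both strands. RefSeq windows (GRCm38.p6, from 250 bases before to 50 bases after the gene start) were matched by symbol for 30 of the 38 genes. TTTGAA or its reverse TTCAAA was present in 23 of the 30 (76.7%), against 20.2% of 27025 genes with a window. CCAAT or its reverse ATTGG was present in 23 of the 30 (76.7%), against 41.1% of all genes, and 20 of the 30 (66.7%) held both, against 8.97% of all genes. A TTTGAA starting within 50 bases of the gene start was present in 21 of the 30, against 5.72% of all genes. A CCAAT and an ATTGG can overlap by 2 letters, and each was then counted. Such a match is a description of the letters and not a binding site. 5 windows are shown in the direction of the gene. Ccnb2, Cdk1, Cdc20 and Plk1 hold both motifs, and their genes act at successive steps of mitosis. Melk holds neither, and its transcript was lower in KO M1 than in WT M1, unlike most of the list. Capitals mark every match to either motif on either strand.
Ccnb2, chr9:70421505-70421804, minus strand: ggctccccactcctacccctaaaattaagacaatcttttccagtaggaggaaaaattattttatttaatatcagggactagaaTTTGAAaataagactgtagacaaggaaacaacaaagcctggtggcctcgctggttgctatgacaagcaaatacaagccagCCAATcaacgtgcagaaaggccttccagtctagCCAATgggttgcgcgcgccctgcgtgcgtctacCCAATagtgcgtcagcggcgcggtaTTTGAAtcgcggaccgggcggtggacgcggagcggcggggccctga
Cdk1, chr10:69352863-69353162, minus strand: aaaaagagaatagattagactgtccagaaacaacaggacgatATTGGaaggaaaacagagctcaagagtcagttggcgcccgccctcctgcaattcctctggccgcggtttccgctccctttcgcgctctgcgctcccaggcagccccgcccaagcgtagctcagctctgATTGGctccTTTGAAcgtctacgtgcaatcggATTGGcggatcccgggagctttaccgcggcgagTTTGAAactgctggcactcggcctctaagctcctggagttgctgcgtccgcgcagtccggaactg
Cdc20, chr4:118437294-118437593, minus strand: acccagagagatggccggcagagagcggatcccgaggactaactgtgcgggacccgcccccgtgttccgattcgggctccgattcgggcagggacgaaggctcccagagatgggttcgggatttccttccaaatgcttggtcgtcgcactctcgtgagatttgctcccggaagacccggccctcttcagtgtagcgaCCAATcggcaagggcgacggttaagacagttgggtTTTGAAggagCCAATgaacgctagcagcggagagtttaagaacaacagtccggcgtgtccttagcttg
Plk1, chr7:122159185-122159484, plus strand: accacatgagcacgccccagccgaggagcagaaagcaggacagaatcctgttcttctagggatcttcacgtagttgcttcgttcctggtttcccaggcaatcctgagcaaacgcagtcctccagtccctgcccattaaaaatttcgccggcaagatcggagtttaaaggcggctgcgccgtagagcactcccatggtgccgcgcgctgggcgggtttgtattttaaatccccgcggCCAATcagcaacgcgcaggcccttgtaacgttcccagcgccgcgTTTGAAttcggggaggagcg
Melk, chr4:44300667-44300966, plus strand: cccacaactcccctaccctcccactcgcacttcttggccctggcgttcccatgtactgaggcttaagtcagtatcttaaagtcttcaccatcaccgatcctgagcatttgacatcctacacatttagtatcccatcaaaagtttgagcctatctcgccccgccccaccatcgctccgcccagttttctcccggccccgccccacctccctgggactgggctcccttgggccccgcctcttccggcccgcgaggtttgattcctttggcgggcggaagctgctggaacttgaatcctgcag
Relative to the gene start, the TTTGAA nearest to it began at 4 in Ccnb2, -15 in Cdk1, -18 in Cdc20 and 30 in Plk1. The 3 CCAAT boxes of Ccnb2 began at -87, -54 and -21. Birc5, Nuf2 and Nusap1 also had neither motif in their windows. Of these, Birc5 and Nusap1 were called higher in KO M1 than in WT M1, and Nuf2 was not called. Cdca8 and Kif2c, called lower there like Melk, each held a TTTGAA or its reverse.

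A level is given below as the log2 of the array's processed signal over its 75th percentile, so that 0 is the signal of the gene at that percentile, and a difference is a difference of such levels. Levels of different genes come from different probes and are not set against each other. Macrophage markers were well above background on all arrays (8 of 8 in each group). Lyz2, the locus of LysMCre, read 2.51 to 5.82 on the 12 arrays labelled KO and 6.97 to 7.48 on the 12 labelled WT, without overlap. Slc2a1 did not differ at the threshold in any state, with levels of 5.26 to 5.54 on KO M1 and 4.44 to 5.55 on WT M1 arrays. The exons deleted are not named in the sources used here, so it is unknown whether the Slc2a1 probe lies in them, and that gene checks nothing about the labels. The arrays lay on 3 slides. The first array of each group on a slide is called set 1, 2 or 3 after it, and 1 further KO and WT pair per state is called set 4 (replicate 3 in M1, 4 in M2 and 2 in M0). Set 4 stood apart: Xist was well above background on 6 of its 6 arrays and on 2 of the other 18, while Ddx3y, Eif2s3y and Uty were so on 0 of 6 and 18 of 18. A further Y-linked gene, Kdm5d, did not follow this pattern and was well above background on 6 of 6 and 18 of 18. Calls for the 38 genes that change without set 4 are therefore given beside the result in the KO minus WT comparison in M1 and in the comparisons with M0.

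Mitotic transcripts were far lower in M1 cultures than in M2 or M0 cultures, and less so in KO than in WT macrophages, while M2 and M0 cultures of both genotypes had levels close to each other. The median level of the 38 genes on an array was -2.58 to -2.30 in KO M1, -3.69 to -3.21 in WT M1, 1.76 to 2.73 in KO M2, 1.44 to 2.32 in WT M2, 1.16 to 2.77 in KO M0 and 1.00 to 2.59 in WT M0. All 8 M1 arrays thus lay below all 16 others, and the 4 KO M1 arrays lay above the 4 WT M1 arrays. All 38 genes were well above background on every M2 and M0 array, 30 to 36 were on a KO M1 array, and 31 to 33 on a WT M1 array.

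**Figure D1:**
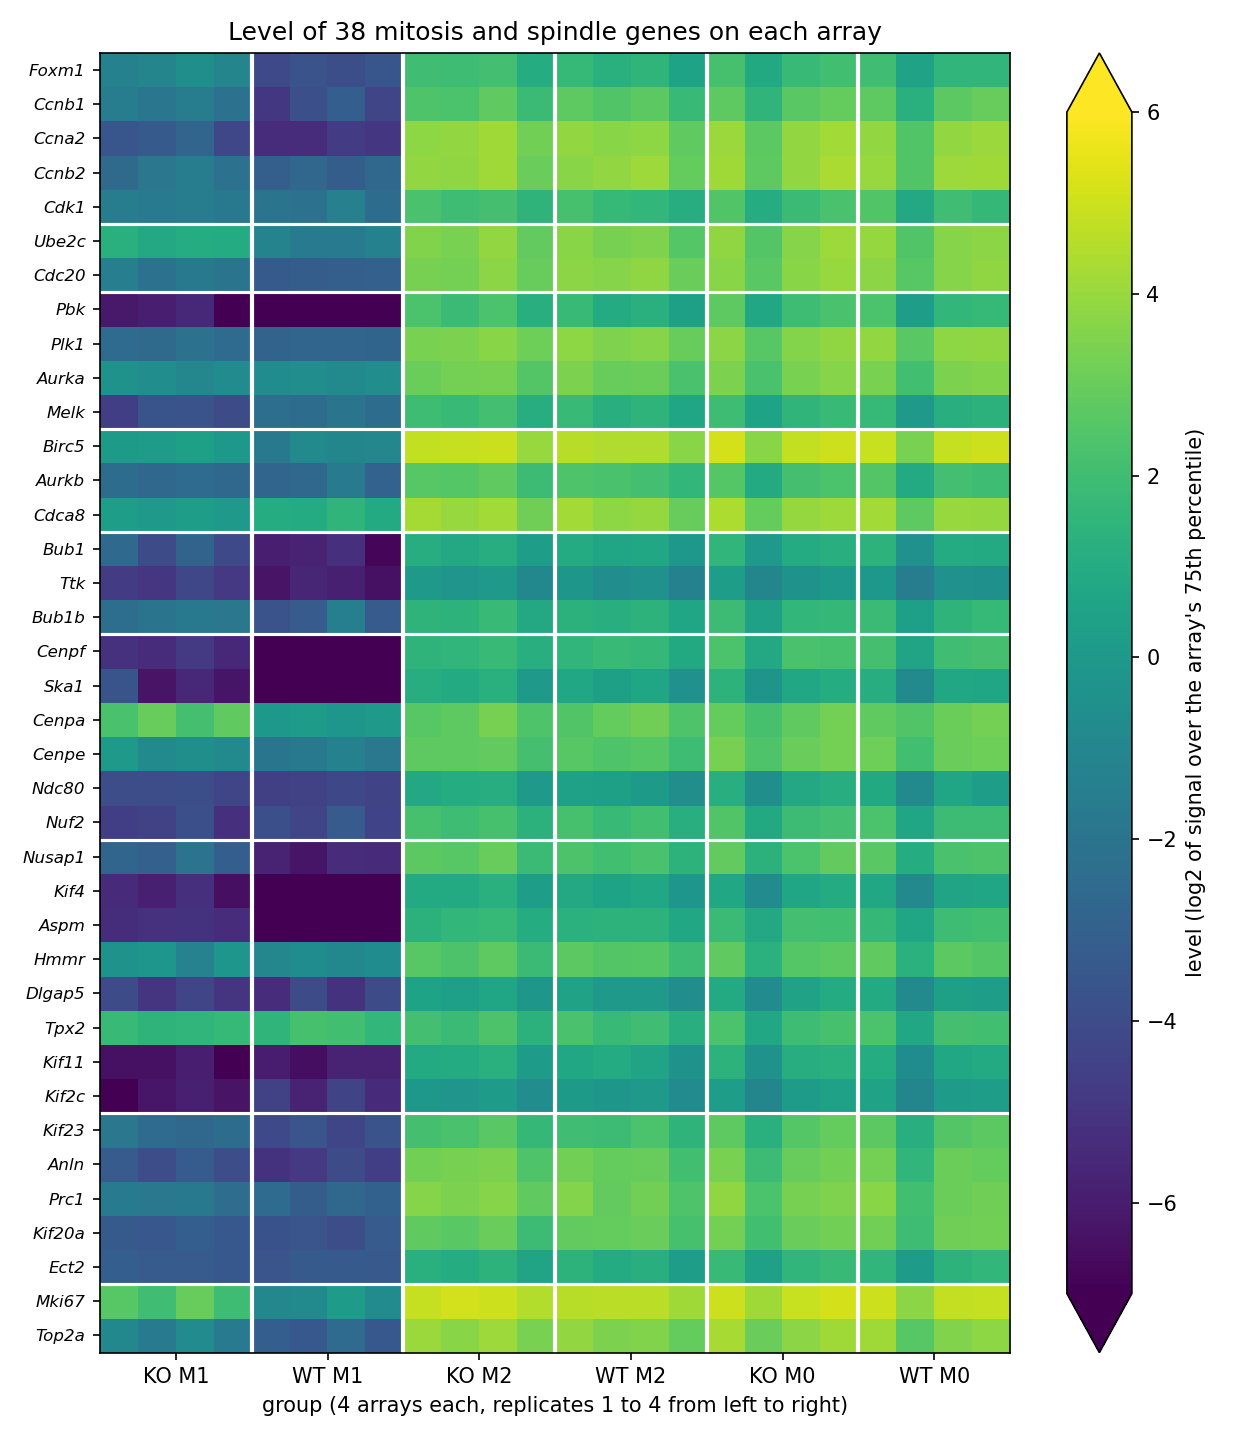
Level of each of the 38 genes (rows, grouped by role) on each of the 24 arrays (columns, by group), as log2 of the signal over the array's 75th percentile; levels under -7 share the darkest colour. The 8 M1 columns are dark for nearly all rows, Tpx2 excepted, and the KO M1 columns are lighter than the WT M1 columns for genes such as Mki67, Cenpa and Ube2c.

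Between M1 and M0 cultures, 36 of the 38 genes fell in KO macrophages and 37 fell in WT macrophages (limma, Benjamini-Hochberg adjusted p under 0.05 over all genes), and none rose. Of all genes tested, 24.2% were called lower and 31.8% higher in KO, and 22.9% lower and 24.9% higher in WT. The median difference over the 38 genes was -4.87 in KO and -5.66 in WT, against 0.22 and 0.01 over all genes (0.04 and 0.04 under quantile normalization). Every M1 array lay below every M0 array for 36 of the 38 genes in KO and 37 in WT, against 22.5% and 21.3% of all genes. These were the genes called, and the separation rests on the same arrays as the calls. The largest fitted drop in KO was that of Pbk, a kinase of dividing cells, at -8.13 ± 0.47 (SE, adjusted p = 1.17e-11), with 1 of the 4 KO M1 arrays well above background. The largest fitted drop in WT was that of Cenpf, a kinetochore protein, which no WT M1 array measured well above background, so that only a bound of at least 252-fold lower than in WT M0 can be given (adjusted p = 2.87e-13). Among genes well above background on all M1 arrays of a genotype, the largest drop was that of cyclin A2, Ccna2, in both, at -7.16 ± 0.38 in KO and -8.66 ± 0.38 in WT. The same kind of bound in WT was at least 230-fold for Aspm, 210-fold for Pbk, 103-fold for Ska1 and 91.8-fold for Kif4, and in KO at least 72.0-fold for Kif11 and 38.3-fold for Kif2c. The KO and the WT comparison use separate arrays, and the difference between them is given further on as the KO minus WT difference of the M1 response.

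**Figure D2:**
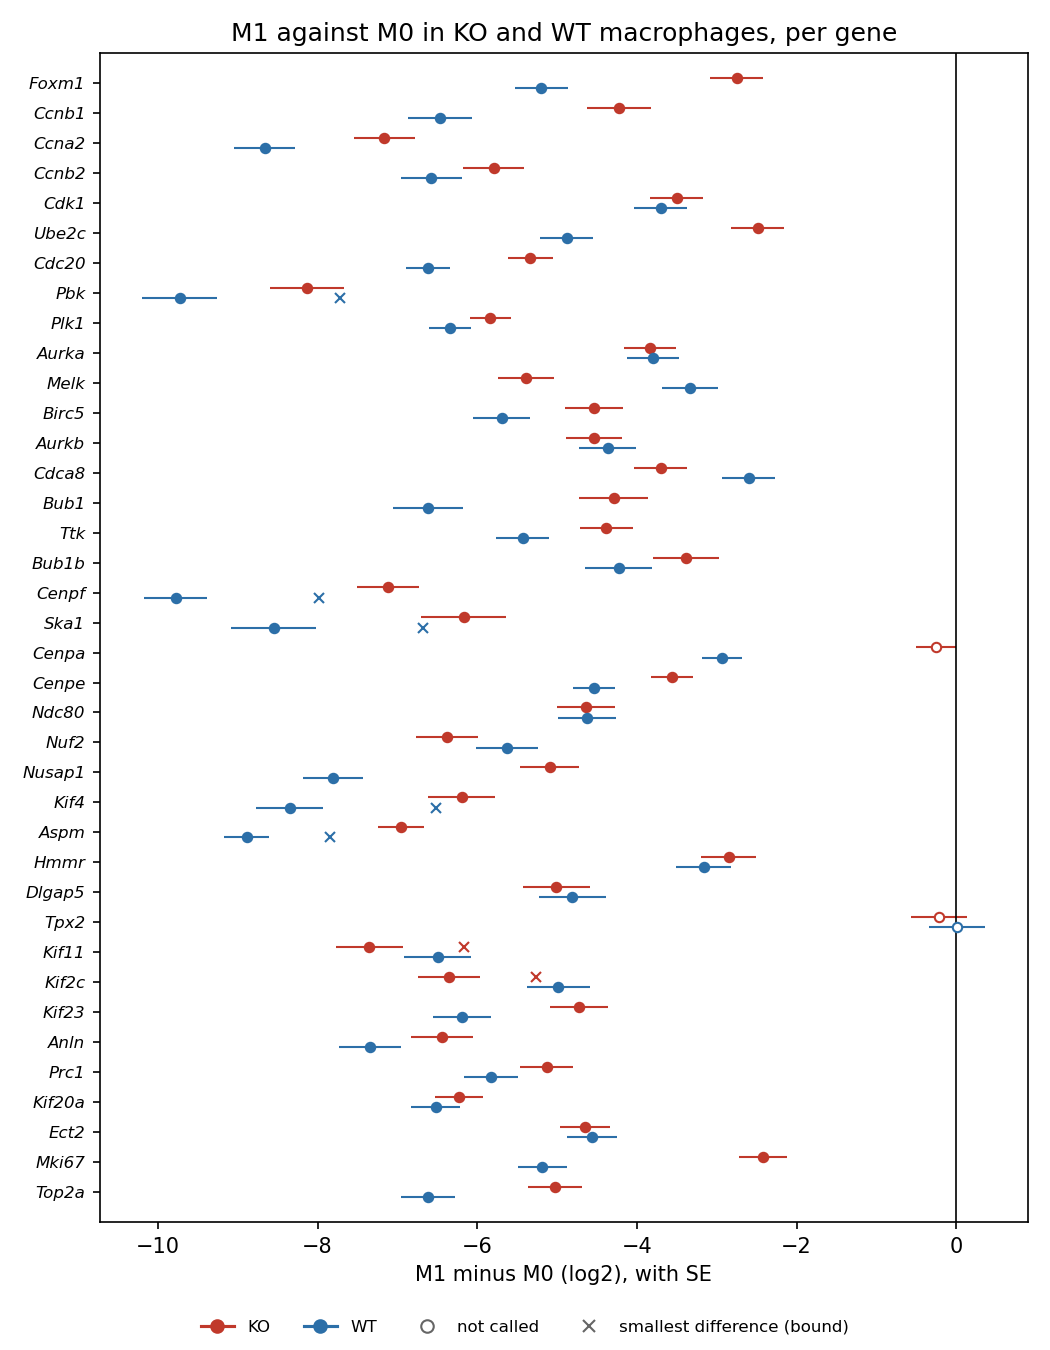
M1 minus M0 difference of each gene (log2, points, with SE) in KO macrophages (red) and WT macrophages (blue); open points did not pass the threshold, and crosses are the smallest difference for genes not well above background in M1. Nearly all points lie between -2.4 and -9.8, with Tpx2 near 0 in both genotypes and Cenpa near 0 in KO alone.

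Tpx2 was the gene that stood outside this drop in both genotypes. Its protein activates aurora A and nucleates spindle microtubules. Tpx2 levels were 1.76, 1.45, 1.58 and 1.71 in KO M1, 1.48, 2.2, 2.06 and 1.59 in WT M1, 2.34, 0.81, 1.96 and 2.24 in KO M0 and 2.3, 0.73, 2.16 and 2.08 in WT M0. All 4 groups overlapped, and the lowest M0 value of each genotype was that of set 4. The M1 minus M0 difference was -0.21 ± 0.35 in KO (adjusted p = 0.642) and 0.01 ± 0.35 in WT (adjusted p = 0.979). Without set 4, Tpx2 was called lower in KO M1 than in KO M0, by -0.54 (adjusted p = 0.0255). A single Tpx2 probe on the array passed the filter, so no further probe bears on it.

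Between KO M1 and WT M1 macrophages, 21 of the 38 genes were higher in KO, 3 were lower and 14 did not pass the threshold. Of all genes tested, 24.3% were called higher and 20.6% lower, so this contrast moved a large share of the transcriptome, and the share of the list called higher was 55.3% and that called lower 7.89%. Under quantile normalization 17.4% of all genes were called higher and 27.2% lower, and the median over all genes was -0.07 in place of 0.16, while 19 of the 38 were called higher and 3 lower. The median difference over the 38 genes was 1.11, or 0.91 with groups at background entered at the limit of detection. In the pairs of sets 1, 2, 3 and 4 the median was 1.70, 0.93, 0.82 and 1.14. All 24 called genes had the same sign in all 4 sets. All 4 KO M1 arrays lay above all 4 WT M1 arrays for 23 of the 38 and below them for 3, as for 23.4% and 20.4% of all genes. The highest was Nusap1, a microtubule bundling protein of the spindle, at 2.98 ± 0.37 (7.87-fold, adjusted p = 1.3e-06). It was well above background on 3 of the 4 WT M1 arrays. The lowest was Melk, a kinase of dividing cells, at -1.70 ± 0.35 (adjusted p = 0.00046). Without set 4, 26 were called higher and 5 lower, where 30.5% and 21.9% of all genes were.

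Signal near background differed between these groups as well. The 75th percentile of intensity was 2344 ± 109 units on KO M1 arrays and 3059 ± 411 on WT M1 arrays (SD, n = 4 each). The 16323 probes that were not well above background on any of the 8 M1 arrays read a median of 0.85 higher in KO M1 on the relative scale, and the 14 such probes that belong to the 38 genes 0.94 higher. Of the 38 genes, 27 were well above background on all 8 M1 arrays. Among these, 13 were called higher and 2 lower, with a median of 0.91. Of the 18492 genes well above background on all 8 M1 arrays, 27.9% were called higher and 24.3% lower, with a median of 0.10. Those genes were not matched to the 27 in level, so the comparison does not show how far the difference near background enters the 27.

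**Figure D3:**
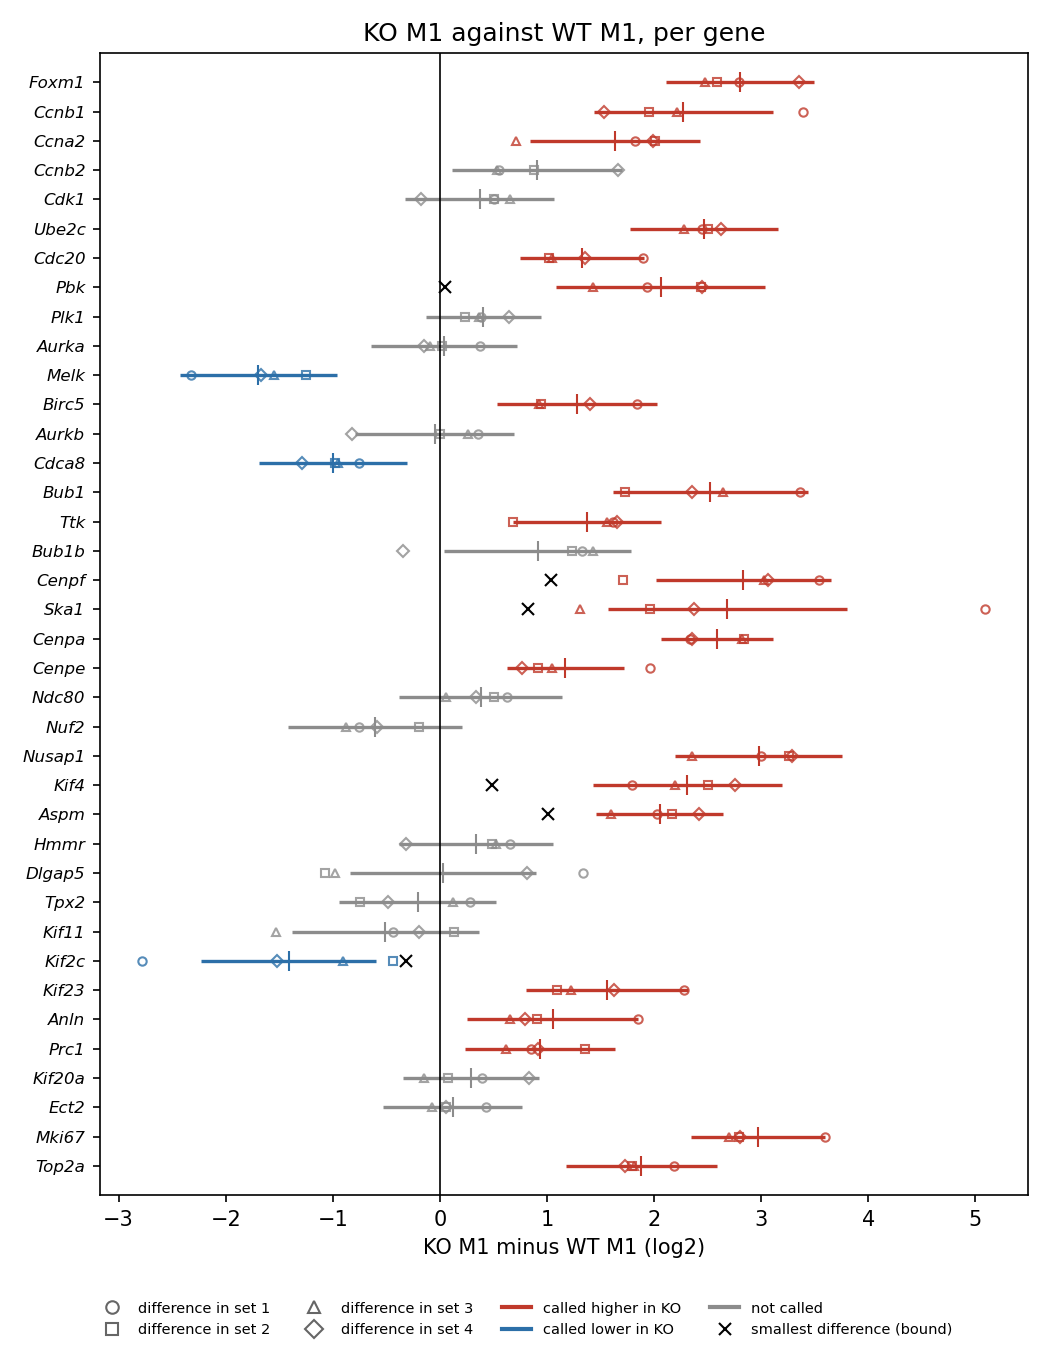
KO M1 minus WT M1 difference of each gene (log2), with the mean and its 95% interval (bar) and the difference within each of the 4 sets (open symbols). Crosses give the difference with a group at background entered at its limit of detection, which is a bound only for Kif2c. Red bars are the 21 genes called higher in KO, blue bars Melk, Cdca8 and Kif2c, called lower, and grey bars the 14 others.

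Of the cyclins, CDK1 and FOXM1, 3 of 5 were higher in KO M1. Ccnb2, cyclin B2, is a B-type partner of CDK1. Its levels were -2.5, -1.83, -1.52 and -2.15 in KO M1 and -3.05, -2.70, -3.18 and -2.68 in WT M1. The groups did not overlap, but the difference of 0.91 ± 0.38 missed the threshold (adjusted p = 0.0594). With the KO and WT arrays of each replicate number fitted as pairs it passed (adjusted p = 0.000519), as it did without set 4 (adjusted p = 0.00599). Ccna2, cyclin A2, which binds CDK1 at the entry into mitosis, read -3.51, -3.33, -2.74 and -4.26 in KO M1 and -5.34, -5.34, -4.73 and -4.97 in WT M1, without overlap. It was 3.1-fold higher in KO (1.63 ± 0.38, adjusted p = 0.0014). In M0 cultures the same gene read 4.05, 2.70, 3.89 and 4.17 in KO and 3.89, 2.47, 3.87 and 4.06 in WT, values that overlapped. Foxm1 (2.80 ± 0.33) and Ccnb1 (2.28 ± 0.40) were also higher in KO M1, whereas Cdk1 at 0.37 ± 0.33 was not called (adjusted p = 0.388) but was without set 4 (0.55, adjusted p = 0.0475). All 5 fell from M0 in both genotypes, with differences of -7.16 to -2.75 in KO and -8.66 to -3.70 in WT.

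Both partners of the anaphase-promoting complex were higher in KO M1. Ube2c, the E2 enzyme that starts ubiquitin chains on its substrates, read 1.24, 0.85, 1.04 and 0.98 in KO M1 and -1.21, -1.65, -1.59 and -1.30 in WT M1. The gap between the groups was many times the spread within them, and Ube2c was 5.53-fold higher in KO (2.47 ± 0.33, adjusted p = 3.24e-06). In M0 it read 3.85, 2.5, 3.62 and 4.08 in KO and 3.93, 2.46, 3.65 and 3.72 in WT, with set 4 lowest in each. Ube2c thus fell by 2.49 on the log2 scale in KO M1 and by 4.88 in WT M1 relative to M0. Cdc20, the activator that the spindle checkpoint restrains, read -1.44, -2.12, -1.72 and -1.98 in KO M1 and -3.34, -3.14, -3.07 and -3.03 in WT M1. It was 2.52-fold higher in KO, again without overlap (1.33 ± 0.28, adjusted p = 0.000491). Of 14 core subunits of the complex, 7 were higher and 4 lower in KO M1, where 24.3% and 20.6% of all genes were. Their differences lay between -0.75 and 0.72. Relative to M0 the core subunits split in both genotypes. In KO, 7 were higher and 6 lower, where 31.8% and 24.2% of all genes were. In WT, 2 core subunits were higher and 3 lower, where 24.9% and 22.9% of all genes were. Of the 3 with the highest levels, the M1 minus M0 difference was -0.96 in KO and -0.22 in WT for Anapc11, -0.56 and -0.90 for Anapc13, and -0.74 and -0.05 for Anapc5, of which the WT differences of Anapc11 and Anapc5 were not called and 1 KO M1 value of Anapc5 was missing from the fit.

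The mitotic kinases went apart. Aurka, aurora A of the centrosomes, read -0.30, -0.62, -0.97 and -0.71 in KO M1 and -0.68, -0.64, -0.82 and -0.61 in WT M1. The groups overlapped almost fully, with a difference of 0.04 ± 0.33 (adjusted p = 0.938, 95% interval -0.64 to 0.72). Plk1, polo-like kinase 1, which acts from mitotic entry to cytokinesis, read -2.48, -2.52, -2.12 and -2.44 in KO M1 and -2.86, -2.76, -2.77 and -2.81 in WT M1. The groups did not overlap, but the difference of 0.41 ± 0.26 was not called (adjusted p = 0.214), and was called with paired arrays (adjusted p = 0.0039) and without set 4 (adjusted p = 0.0144). Melk read -4.61, -3.64, -3.65 and -3.96 in KO M1 and -2.28, -2.39, -1.98 and -2.41 in WT M1, every KO array below every WT array. Pbk was at background in WT M1 and well above it on 1 of 4 KO M1 arrays, and was called higher in KO (adjusted p = 0.00109). With WT M1 entered at its limit of detection, its excess in KO was only 1.03-fold. The KO mean behind that value includes readings at background. Relative to M0 all 4 kinases fell in both genotypes, with a difference of -3.83 in KO and -3.80 in WT for Aurka and of -5.84 in KO and -6.34 in WT for Plk1.

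**Figure D4:**
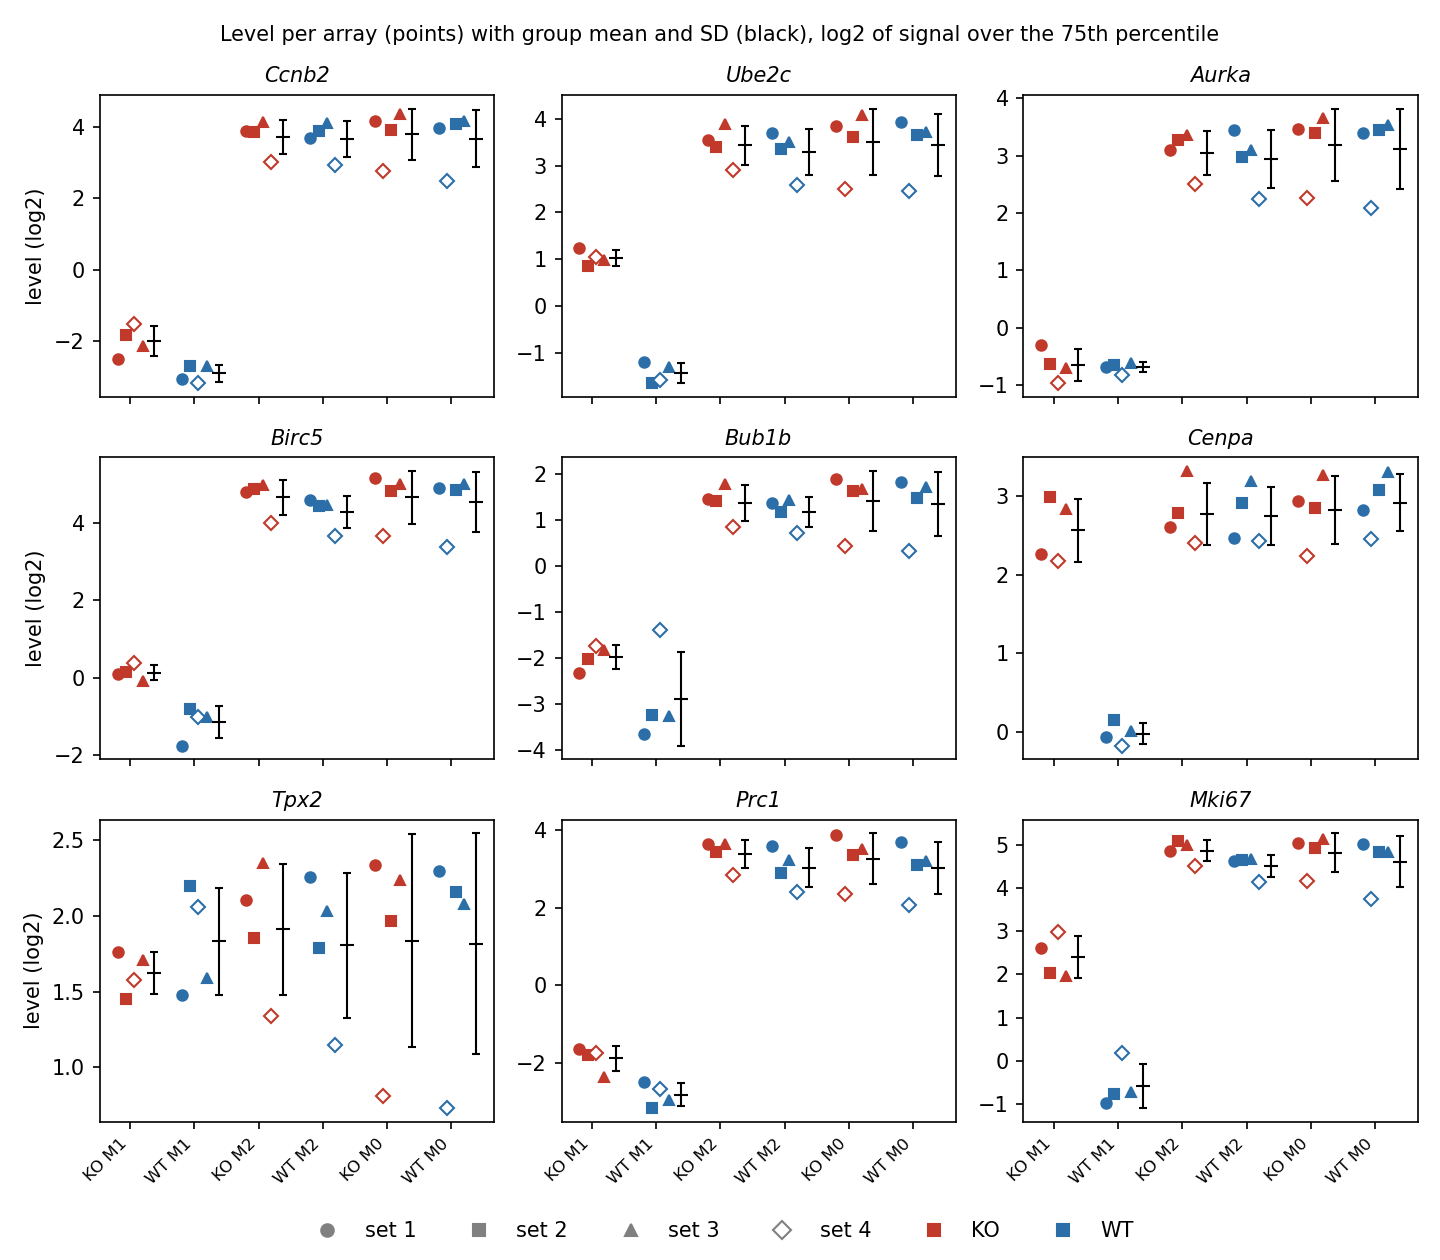
Level (log2 of the signal over the 75th percentile) on each array (points, marker by set) with the group mean and SD (black) for the gene of highest mean level in each role group. The KO M1 and WT M1 points are separate for Ube2c, Birc5, Cenpa, Prc1, Mki67 and Ccnb2, interleaved for Aurka, Bub1b and Tpx2, and the open diamonds of set 4 are lowest in nearly every M2 and M0 group.

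The chromosomal passenger complex, in which survivin (Birc5), borealin (Cdca8) and INCENP hold aurora B (Aurkb) at centromeres and then at the midzone, had members on both sides. Birc5 read 0.09, 0.14, 0.38 and -0.08 in KO M1 and -1.76, -0.81, -1.02 and -1.0 in WT M1, without overlap, and was 2.43-fold higher in KO (1.28 ± 0.36, adjusted p = 0.0061). Cdca8 read 0.29, 0.03, 0.21 and -0.00 in KO M1 and 1.05, 1.01, 1.5 and 0.95 in WT M1, without overlap in the other direction, and was lower in KO by -0.99 ± 0.33 (adjusted p = 0.0185). A second Cdca8 probe gave -1.08, while one more, not well above background on any M1 array, gave 0.92. Averaged over its probes, Cdca8 was no longer called (-0.39, adjusted p = 0.307), nor was it without replicate 3 of WT M1 (adjusted p = 0.0581). Aurkb did not differ (-0.05 ± 0.35, adjusted p = 0.924, 95% interval -0.79 to 0.69). Relative to M0 all 3 fell in both genotypes, with differences of -4.54 in KO and -5.70 in WT for Birc5 and of -3.70 in KO and -2.60 in WT for Cdca8.

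Of the spindle checkpoint kinases, 2 of 3 were higher in KO M1. Bub1, which recruits other checkpoint proteins to kinetochores, read -2.55, -3.96, -2.85 and -4.12 in KO M1 and -5.92, -5.69, -5.21 and -6.76 in WT M1. It was 5.75-fold higher in KO, without overlap (2.52 ± 0.44, adjusted p = 6.79e-05), and was well above background on 3 of the 4 WT M1 arrays. Bub1b, or BubR1, a part of the complex that inhibits Cdc20, read -2.33, -2.01, -1.74 and -1.82 in KO M1 and -3.65, -3.24, -1.40 and -3.25 in WT M1. The WT array of set 4 lay above all KO arrays, and the difference of 0.91 ± 0.42 was not called (adjusted p = 0.0823). It was called without set 4 (1.33, adjusted p = 9.27e-06) and with paired arrays (adjusted p = 0.00561). Ttk, the kinase Mps1, was higher in KO M1 at 1.38 ± 0.33 (adjusted p = 0.00184), and was well above background on 2 of the 4 WT M1 arrays.

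Of the centromere and kinetochore genes, 4 of 6 were higher in KO M1. Cenpa encodes the histone H3 variant that marks centromeres. Its levels were 2.27, 2.98, 2.18 and 2.83 in KO M1, against -0.07, 0.15, -0.18 and 0.01 in WT M1. They were 2.94, 2.23, 2.85 and 3.27 in KO M0 and 2.82, 2.46, 3.08 and 3.31 in WT M0. The KO M1 arrays overlapped those of M0, and the WT M1 arrays lay far below both. Cenpa was thus 6.02-fold higher in KO M1 than in WT M1 (2.59 ± 0.25, adjusted p = 3.9e-08). Its M1 minus M0 difference was -0.26 ± 0.25 in KO (adjusted p = 0.405) and -2.94 ± 0.25 in WT (adjusted p = 7.26e-09). Cenpe, a kinetochore motor, read 0.03, -0.85, -0.51 and -0.78 in KO M1 and -1.93, -1.77, -1.28 and -1.82 in WT M1, and was 2.25-fold higher in KO, without overlap (1.17 ± 0.26, adjusted p = 0.00096). Cenpf and Ska1 were at background in WT M1 and were well above it on 1 and 2 of the 4 KO M1 arrays. With WT M1 entered at its limit of detection, they read 2.05-fold and 1.77-fold higher in KO. The KO means include readings at background, so these are not lower bounds. Ndc80 at 0.38 ± 0.37 and Nuf2 at -0.60 ± 0.39, which pair in the complex that grips microtubules, were not called, and with paired arrays Ndc80 was called higher (adjusted p = 0.0326) and Nuf2 lower (adjusted p = 0.000395). Nuf2 was also called lower without set 4 (-0.61, adjusted p = 0.0295).

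Of the 8 spindle motors and spindle proteins, 3 were higher in KO M1 and 1 lower. Besides Nusap1 those higher were Aspm, a protein of the spindle poles, and the chromosome motor Kif4. Both were at background in WT M1 and well above it on 2 and 1 of the 4 KO M1 arrays. With WT M1 entered at its limit of detection, they read 2.01-fold and 1.4-fold higher in KO. These too are not lower bounds, since the KO means include readings at background. Nusap1 read -2.78, -3.02, -2.06 and -3.09 in KO M1 and -5.78, -6.28, -5.35 and -5.45 in WT M1, without overlap. Kif2c, a microtubule depolymerase, was not well above background on any KO M1 array and was at least 1.25-fold lower in KO (adjusted p = 0.00571). Its second probe was at background on all M1 arrays and gave 0.96, and the call was lost with the mean of both probes (adjusted p = 0.562) and with normexp background (adjusted p = 0.4). That background also ended the call of Pbk (adjusted p = 0.0532). Hmmr, a microtubule protein of the spindle poles, read -0.35, -0.19, -1.24 and -0.18 in KO M1 and -1.0, -0.68, -0.93 and -0.70 in WT M1. The KO array of set 4 lay below all WT arrays, and the difference of 0.34 ± 0.35 was not called (adjusted p = 0.454), whereas without set 4 it was (0.55, adjusted p = 0.00204). Dlgap5, a microtubule protein of the spindle, was not called (0.03 ± 0.42). The bipolar spindle motor Kif11 was at background on all KO M1 arrays, so no size is given for it. It was not called (adjusted p = 0.346), but without set 4 it was called lower in KO (adjusted p = 0.0368).

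Of the midzone and cytokinesis genes, 3 of 5 were higher in KO M1. Prc1, which bundles the antiparallel microtubules of the midzone, read -1.62, -1.79, -1.74 and -2.34 in KO M1 and -2.48, -3.15, -2.66 and -2.96 in WT M1. The groups did not overlap, and the difference was 0.94 ± 0.34 (1.91-fold, adjusted p = 0.0284). That call and the one of Anln, the scaffold of the contractile ring (1.05 ± 0.38, adjusted p = 0.0304), were both lost under quantile normalization (adjusted p = 0.0555 and 0.0986). Averaged over its probes, Anln was not called either (0.96, adjusted p = 0.107). Prc1 was also not called without replicate 1, 2 or 3 of KO M1 or 2 or 4 of WT M1 (adjusted p = 0.0579 to 0.0816), nor Anln without replicate 1 or 3 of KO M1 or 1 or 2 of WT M1 (adjusted p = 0.0703 to 0.0955). Kif23, a midzone motor, was higher in KO at 1.56 ± 0.36. Kif20a, a motor that carries the passenger complex to the midzone, read -3.33, -3.48, -3.11 and -3.41 in KO M1 and -3.72, -3.56, -3.94 and -3.27 in WT M1. These overlapped, with a difference of 0.29 ± 0.30 (adjusted p = 0.471), and Ect2, which activates RhoA at the cleavage site, gave 0.12 ± 0.31. All 5 fell from M0 in both genotypes, with differences of -6.44 to -4.65 in KO and -7.34 to -4.56 in WT.

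Both chromosome proteins were higher in KO M1. Mki67, the Ki-67 protein that coats mitotic chromosomes and is used as a marker of proliferation, read 2.61, 2.03, 2.97 and 1.97 in KO M1 and -0.98, -0.77, 0.17 and -0.73 in WT M1. In M0 it read 5.03, 4.16, 4.93 and 5.14 in KO and 5.02, 3.75, 4.82 and 4.84 in WT. KO M1 lay between WT M1 and M0 with no overlap on either side, 7.84-fold above WT M1 (2.97 ± 0.30, adjusted p = 7.25e-08). Mki67 fell by 2.42 on the log2 scale in KO M1 and by 5.18 in WT M1 relative to M0. Top2a, topoisomerase II alpha, which untangles sister chromatids, read -0.91, -1.63, -0.71 and -1.63 in KO M1 and -3.09, -3.43, -2.44 and -3.44 in WT M1. It was 3.68-fold higher in KO, without overlap (1.88 ± 0.34, adjusted p = 0.000104).

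The test of the M1 response itself, the M1 minus M0 difference of KO less that of WT, called 15 of the 38 genes higher and 1 lower. Of all genes, 15.2% were called higher and 15.1% lower, and under quantile normalization 11.8% and 19.9%. With the KO and WT arrays paired, 23 were called higher and 5 lower, where 22.4% and 20.6% of all genes were, and without set 4 the counts were 23 and 4, where 19.5% and 16.4% of all genes were called. The median over the 38 genes was 0.94 (0.74 to 1.41 in the 4 sets), or 0.74 with groups at background entered at the limit of detection, against 0.12 over all genes (-0.07 under quantile normalization). The highest was Mki67 at 2.76 ± 0.43 (adjusted p = 3.59e-05), and Nusap1 (2.71) and Cenpa (2.68) were close to it. Of the 15 called higher, 4 (Cenpf, Ska1, Kif4 and Aspm) were at background in WT M1 and have no exact size, and all 4 lost the call with normexp background (adjusted p = 0.0929 to 0.232). Ska1 lost it under quantile normalization as well (adjusted p = 0.0746), as did Ccna2 and Kif23 (adjusted p = 0.106 and 0.0761). The lowest was Melk at -2.06 ± 0.50 (adjusted p = 0.00293). Among the 27 genes well above background on all M1 arrays, 9 were called higher and 1 lower. The share among all genes measured that well was not counted for this test. The M1 response and the KO minus WT contrast in M1 share their M1 arrays, so they are not separate evidence.

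Without M1 stimulation no gene of the list was called between the genotypes, and the median differences were small. In M2, 0 of the 38 genes were called higher and 0 lower between KO and WT, as against 0.0155% and 0.0271% of all genes, and in M0 the counts were 0 and 0, against 0.00775% and 0.0465%. At an unadjusted p under 0.05, 1165 of all genes passed in M2 and 760 in M0. The median over the 38 genes was 0.24 in M2 and 0.15 in M0, with 33 and 34 of the 38 positive. In all 4 sets, KO read above WT for 22 genes in M2 and 20 in M0, and below it for 1 in each. The genes share arrays, so these counts are not independent. The medians within sets were 0.07 to 0.35 in M2 and 0.03 to 0.24 in M0. The largest difference in both was that of Pbk, 0.82 ± 0.47 in M2 and 0.47 ± 0.47 in M0, and the lowest were Cdc20 in M2 (-0.22) and Plk1 in M0 (-0.10). Mki67 read 4.86, 5.09, 5.00 and 4.51 in KO M2 and 4.61, 4.63, 4.66 and 4.13 in WT M2, which overlapped only through the KO array of set 4.

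Between M2 and M0 cultures no member was called in either genotype, where 7.36% of all genes were called lower and 6.32% higher in KO, and 8.77% lower and 6.65% higher in WT. The median over the 38 genes was -0.01 in KO and -0.09 in WT. The differences ran from -0.45 (Cenpf) to 0.47 (Aurkb) in KO and from -0.45 (Cenpe) to 0.22 (Kif4) in WT, with standard errors of 0.26 to 0.42 for these genes. Without set 4, 2 of the 38 were called lower in KO (Aspm and Ect2) and 3 in WT (Aspm, Cenpe and Kif23), where 9.4% and 15.1% of all genes were, so the shares of the list were below those of all genes. Ccnb2 read 3.90, 3.85, 4.13 and 3.03 in KO M2 and 4.16, 2.76, 3.91 and 4.36 in KO M0, and 3.69, 3.90, 4.11 and 2.94 in WT M2 and 3.97, 2.48, 4.08 and 4.16 in WT M0. In each of these groups the lowest value was that of set 4. The M2 response did not differ between the genotypes for any of the 38 genes at the threshold, nor for any of the 25791 tested, and 251 of the latter passed an unadjusted p under 0.05.

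Set 4 lay apart from the other sets within the M2 and M0 groups. Relative to the mean of sets 1 to 3, its arrays were lower for 38 of 38 genes in all 4 of these groups, by a median of -0.74 in KO M2, -0.84 in WT M2, -1.28 in KO M0 and -1.36 in WT M0. In M1 they were higher, by a median of 0.32 in KO and 0.28 in WT. Over all genes the same medians lay between -0.10 and 0.03. Markers of myeloid progenitors summed to 15.5 in KO M0 and 14.9 in WT M0 on the arrays of set 4, in units of the 75th percentile, against 4.39 to 5.14 and 4.56 to 5.52 in the other sets, and their part in the result was not tested.

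**Figure D5:**
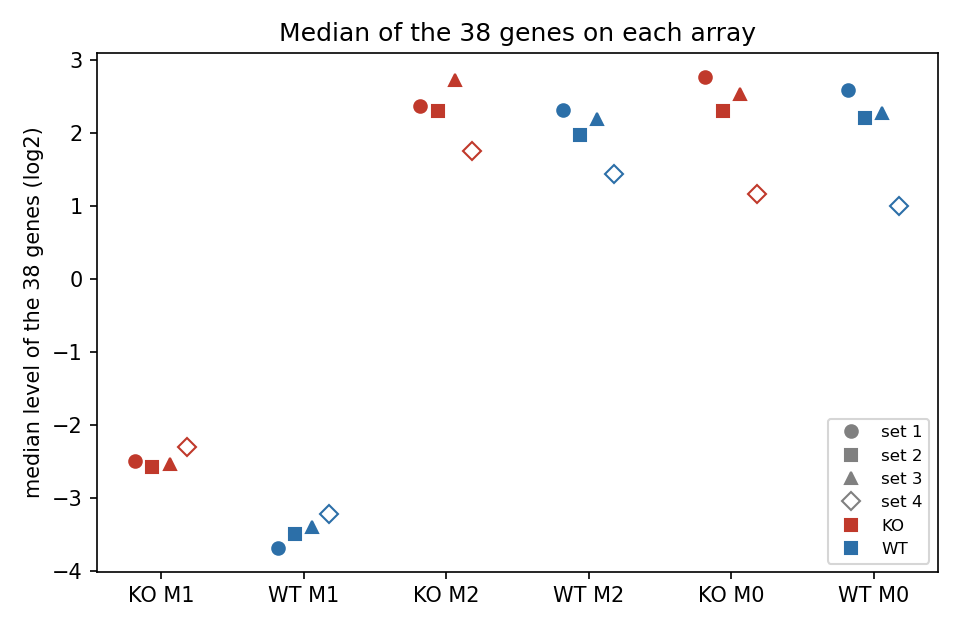
Median level of the 38 genes on each array (log2 of the signal over the 75th percentile) by group, with the marker giving the set. The 4 KO M1 arrays lie above the 4 WT M1 arrays, all M1 arrays lie below all others, and the open diamonds of set 4 are lowest in the M2 and M0 groups and highest in M1.

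Other genes of the cell cycle were read from lists fixed with earlier results of these data known. Of all genes, 24.2% were called lower and 31.8% higher in KO M1 than in KO M0. Between WT M1 and WT M0 these shares were 22.9% and 24.9%. In KO M1 against WT M1, 24.3% of all genes were called higher and 20.6% lower. Of 60 further mitosis genes, 54 were lower and 2 higher in KO M1 than in KO M0, and 56 were lower and 3 higher in WT M1 than in WT M0, with medians of -3.69 and -4.21. Between KO M1 and WT M1, 31 of the 60 were higher and 8 lower, with a median of 0.77. The 3 with the highest levels were Bub3, Incenp and Pttg1. Incenp, the scaffold of the passenger complex, fell by 1.71 on the log2 scale in KO M1 and by 1.64 in WT M1 and did not differ between the genotypes in M1 (0.07 ± 0.20, adjusted p = 0.803). Bub3, the checkpoint adaptor of Bub1, fell by 0.46 in KO and by 0.51 in WT. Pttg1, or securin, rose in M1 in both genotypes, by 0.76 ± 0.14 in KO and by 1.21 ± 0.14 in WT, and was lower in KO M1 than in WT M1 (-0.38 ± 0.14, adjusted p = 0.0381).

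Of 26 S phase genes, 19 were lower and 1 higher in M1 than in M0 in each genotype, with medians of -2.07 in KO and -1.96 in WT. Between KO M1 and WT M1, 5 of the 26 were higher and 5 lower, where 24.3% of all genes were called higher and 20.6% lower. The replication helicase subunit Mcm3 was lower in KO M1 (-1.18 ± 0.30, adjusted p = 0.0029), while the DNA ligase Lig1 (0.03 ± 0.20) and the sliding clamp Pcna (-0.15 ± 0.40) were not called. Of 12 genes of the MuvB and DREAM complexes, which repress and activate CHR promoters, 5 were higher and 2 lower in KO M1, beside the same shares of all genes. Among them, the histone chaperone Rbbp4 (0.58 ± 0.12, adjusted p = 0.000561) and Lin37 (0.46 ± 0.09, adjusted p = 0.000317) were higher in KO M1, and Rbl1, the pocket protein p107, was not called there (0.07 ± 0.29) but rose in M1 over M0 in both genotypes, by 1.1 ± 0.29 in KO and by 1.35 ± 0.29 in WT.

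Some markers of other cells were also called between KO M1 and WT M1, where 24.3% of all genes were called higher and 20.6% lower. Myeloid progenitor markers, of which 5 of 8 were well above background on all arrays of each group, summed to 7.08 to 9.83 on KO M1 arrays and 4.70 to 6.72 on WT M1 arrays, with 3 of 8 called higher (Kit, Gfi1 and Cd34) and 0 lower. Neutrophil markers summed to 42.5 to 120 on KO M1 arrays and 8.74 to 44.4 on WT M1 arrays, with 3 of 8 called higher and Ly6g lower. The KO M1 and WT M1 sums were 42.8 and 38.4 in set 1 and 42.5 and 44.4 in set 3. They were 120 and 25.9 in set 2 and 118 and 8.74 in set 4. Dendritic cell markers summed to 44.1 to 61.5 on KO M1 arrays and 21.3 to 40.8 on WT M1 arrays, with 3 of 6 called higher and Zbtb46 lower. Of 8 macrophage markers 1 was called higher and 3 lower, of 7 lymphocyte markers 2 were called higher and 0 lower, and of 3 erythroid and 6 stromal markers 0 were called. The part of these cells in the KO minus WT difference of the mitosis genes was not tested.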

How the data were processed

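RNA from 24 cultures was hybridised to 1-colour (Cy3) Agilent mouse arrays. Per the file headers, the deposited intensity of a spot was background-subtracted and spatially detrended within its array (Agilent Feature Extraction 10.7.3.1), whereas the submitters' processing notes name version 9.1. Arrays limit the precision through their number, 4 per group, and 75th percentiles of 2253 to 4362 intensity units. A deposited value table was not used here, since its identifiers do not match the probes of the spots.

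From these intensities, outlier spots were left out, spots of a probe averaged, and log2 taken relative to the array's 75th percentile over gene spots. Probes well above background on at least 4 arrays were kept (39036 of 56605). The brightest probe stood for a gene, 18 of the 38 genes having several, of which 5 had probes that differ in sign between KO M1 and WT M1. Group means of all 24 arrays were fitted in limma 3.58.1 (R 4.3.3) with eBayes, and a Benjamini-Hochberg adjusted p under 0.05 over 25791 genes was called. Fits, calls and p-values used the levels as read, also where these were at background. Sizes given as bounds or at the limit of detection were computed apart from the fit. For these, a group with no array well above background was entered at its limit of detection. This limit was taken per array from its lowest signal well above background. The difference is then a bound only if the other group was well above background on all its arrays. All 38 genes had values on all arrays.

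On simulated data for KO minus WT in M1, 47% of 100 changes of 1 and 77% of 100 changes of 2 on the log2 scale were recovered, with 7 false calls. The simulation changed 200 of 25791 genes, whereas 24.3% of all genes were called higher and 20.6% lower in the data. The adjusted threshold depends on that share, so these figures do not give the recovery or the false calls of the real comparison. Same-numbered KO and WT arrays deviated together in all 12 pairs (correlation 0.17 to 0.85), which the main fit does not use. A fit with these pairs is given where it changes a call of KO minus WT in M1, and by counts alone for the M1 response. Between states, same-numbered arrays did not deviate together throughout (-0.46 to 0.56), while arrays of the same set did (0.18 to 0.78). Set is fitted as a block among the alternatives. Alternatives were quantile normalization, normexp background, no filter, the mean of probes, outlier spots kept, a trend in eBayes, fits of the compared groups alone, blocks for number, pair, slide and set, arrays left out and, chosen after seeing the data, probes well above background on all 24 arrays. The members, lists and tests were chosen with earlier results of these data known. The rule for named genes was the 2 of highest mean level in each role group, the highest and lowest difference of each comparison, and the 3 of highest level in each further list; other genes are named by counts, bounds or changes of call, after their values were seen. Promoter windows are RefSeq's.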

Additional observations from a re-analysis of the deposited data

Results flagged for a closer look

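The genotypes differed in the M1 response of 16 genes by the test of the difference itself (KO minus WT, log2). It was 2.76 for Mki67, 2.71 for Nusap1, 2.68 for Cenpa, 2.45 for Foxm1, 2.39 for Ube2c, 2.33 for Bub1 and 2.24 for Ccnb1. It was 1.59 for Top2a, 1.5 for Ccna2, 1.46 for Kif23 and 1.28 for Cdc20, and -2.06 for Melk. Of these, Nusap1 and Bub1 were well above background on 3 of the 4 WT M1 arrays. For 4 genes the fitted values, 2.66 for Cenpf, 2.38 for Ska1, 2.15 for Kif4 and 1.94 for Aspm, rest on WT M1 readings at background and are not measured sizes. With WT M1 entered at the limit of detection the response was 0.86 for Cenpf, 0.51 for Ska1, 0.33 for Kif4 and 0.89 for Aspm. These values are not lower bounds, since the KO M1 means include readings at background. With normexp background the fit gave 0.97, 1.06, 0.80 and 0.84 for these 4, none of them called. For Pbk, whose response of 1.59 was not called, entering WT M1 at the limit of detection gave -0.42.

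In 17 of 114 groups of 4 arrays examined, 1 array stood apart from the other 3 by Dixon's test, which chance does in about 1 in 20 groups (5%), and the groups share arrays and are not independent. All 17 were arrays of set 4. In WT M0, replicate 2 was low for Cdc20 (2.63), Cenpe (2.08), Birc5 (3.37), Mki67 (3.75), Ccnb2 (2.48), Ccna2 (2.47), Kif20a (1.98), Aurka (2.08), Plk1 (2.66) and Tpx2 (0.73). In KO M0, replicate 2 was low for Hmmr (1.32). In KO M2, replicate 4 was low for Cenpe (2.19) and Birc5 (4.00), and in WT M2 for Birc5 (3.67), Mki67 (4.13) and Kif20a (2.21). In KO M1, replicate 3 was low for Hmmr (-1.24).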

How the results depend on the processing

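No gene that was called turned its direction under any alternative run. The drop in M1 kept its count of 36 genes in KO and 37 in WT under every alternative that keeps all 38 genes, except that without set 4 it was 37 in KO. The cause of each change below was not tested unless named. For the M1 response, genes called higher numbered 9 with normexp background, 23 with the replicate block of 12 KO and WT pairs and 23 without set 4, against 15. In the main fit 15.2% of all genes were called higher, and the share with normexp background is not given here. With normexp background Aspm, Ccna2, Cenpf, Kif23, Kif4 and Ska1 lost the call (adjusted p = 0.0507 to 0.232), and under quantile normalization Ccna2, Kif23 and Ska1 (adjusted p = 0.0746 to 0.106). Genes called lower numbered 2 under quantile normalization, 3 with the replicate block by label number, 5 with the block of 12 pairs, 2 with set as a block and 4 without set 4, against 1. For KO minus WT in M1, genes called lower numbered 1 with the mean of probes, which adds dim probes of Cdca8 and Kif2c, and 5 without set 4, against 3. Kif2c and Pbk lost their calls with normexp background (adjusted p = 0.4 and 0.0532). Anln, called higher, lost its call with the mean of probes (adjusted p = 0.107). M2 minus M0 had 3 genes called lower in WT and 2 in KO without set 4, against 0. The block by label number rests on numbers that do not pair the states. Leaving out each array in turn, the median of the 38 genes was -0.20 to 0.47 in KO minus WT in M0, 0.054 to 0.43 in M2, -0.41 to 0.10 in M2 minus M0 in WT, 0.68 to 1.26 in the M1 response and -0.22 to 0.40 in the M2 response, and the M1 response had 13 to 19 genes called higher and 1 to 3 lower. These extremes were reached without the M0 or M2 arrays of set 4. The M1 response of Ccna2 and Kif23 was not called in a fit of the compared groups alone (adjusted p = 0.0657 each), and lost its call without replicate 2 of KO M0, 1 of KO M1, 1, 3 or 4 of WT M0 or 1 of WT M1 in both genes, without 2 or 3 of KO M1 or 2 or 4 of WT M1 for Ccna2 and without 3 of WT M1 for Kif23 (adjusted p = 0.0503 to 0.0911). KO minus WT in M1 kept 19 to 22 genes higher and 2 to 3 lower. Of the 27 genes whose probe was well above background on all 24 arrays, 14 were called higher and 2 lower in that comparison. In the main fit 24.3% of all genes were called higher and 20.6% lower there. The shares of all genes under this probe choice are not given here, so the 2 counts cannot be set against them. Signal near background limits the 7 genes given as bounds.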
